A study of Mus musculus with 2 samples.

Results

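Gamma delta T cells of the mouse spleen were read from single-cell libraries of 5′ transcript ends, 1 library from ALLO spleens and 1 from SYN spleens. They were chosen by their raw counts, as barcodes with at least 1000 UMIs (unique molecular identifiers, each standing for 1 captured transcript), at most 10% mitochondrial UMIs, at least 1 UMI of Cd3d, Cd3e or Cd3g, at least 2 UMIs of Trdc, and none of Cd4, Cd8b1, Cd79a or Ncr1. This gate held 41 cells in ALLO and 29 in SYN, 70 of the 20990 barcodes that passed the UMI and mitochondrial limits. The recipients of both groups were wild-type C57BL/6 mice. ALLO mice received skin of C57BL/6-Tg(HLAA2.1)1Enge/J donors, which carry a human HLA-A2 transgene, at week 0 and again at week 5. SYN mice received skin of wild-type C57BL/6 donors by the same procedure and at the same weeks. Spleens of both groups were taken 4 weeks after the second graft. The splenocytes were frozen in serum with DMSO, thawed and passed through dead cell removal columns before capture, so the shares below are of cells that survived those steps. The labels do not give the number of animals behind a library, and with 1 library in each group there is no test of ALLO against SYN. Intervals on their ratio cover counting error only.

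A gamma delta T cell carries a receptor of 1 gamma and 1 delta chain in place of the alpha beta receptor of CD4 and CD8 T cells. Each chain joins a variable segment to a constant region, encoded by Trdc for delta and by Tcrg-C1, Tcrg-C2, Tcrg-C3 or Tcrg-C4 for gamma. In the mouse, the variable segment often goes with where and when a cell left the thymus and with its effector programme. Cells that pair Tcrg-V6 with Trdv4 are known as an early-born wave that makes interleukin 17, while many circulating cells in spleen use other gamma segments and make interferon gamma. Some delta segments, those with a double TRAV and DV name, can also be used by the alpha chain.

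The segment sequences are shown first, because how far they can be told apart limits every count of segment use. All were read from GENCODE annotation of GRCm38 (mm10), and each is given 5′ to 3′ on its own strand. Tcrg-V6 (chr13:19190780-19190929, plus strand) and Trdv4 (chr14:54075366-54075515, plus strand) formed the pair of 2 cells described below. Trav13-4-dv7 (chr14:53757772-53757921, plus strand) was the delta segment assigned to the most cells, and Trdv5 (chr14:54148662-54148811, minus strand) came next. The last 150 bases of each are printed, and the capitals mark the last TGT, a cysteine codon's letters near the end of the segment.
Tcrg-V6: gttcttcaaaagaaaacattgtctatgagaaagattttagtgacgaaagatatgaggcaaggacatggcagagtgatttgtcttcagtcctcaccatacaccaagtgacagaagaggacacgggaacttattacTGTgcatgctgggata
Trdv4: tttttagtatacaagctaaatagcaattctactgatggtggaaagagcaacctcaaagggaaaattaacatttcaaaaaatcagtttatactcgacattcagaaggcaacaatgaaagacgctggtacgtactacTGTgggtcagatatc
Trav13-4-dv7: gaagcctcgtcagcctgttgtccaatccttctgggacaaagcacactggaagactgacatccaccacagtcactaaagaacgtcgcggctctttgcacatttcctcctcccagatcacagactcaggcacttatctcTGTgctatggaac
Trdv5: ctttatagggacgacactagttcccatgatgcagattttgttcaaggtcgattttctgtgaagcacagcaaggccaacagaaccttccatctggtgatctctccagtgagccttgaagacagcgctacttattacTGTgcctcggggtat
Tcrg-V6, Trdv4 and Trdv5 shared none of their 50-base windows with another T cell receptor segment or constant gene, the only transcripts searched. Trav13-4-dv7 shared 77.1% of its windows with other receptor transcripts, most often Trav13d-4, so reads over most of its length could not be placed by sequence alone. Trdv2-2 shared 52.6% of its windows, with Trdv2-1, and Trav15-2-dv6-2 shared 38.3%, with Trav15n-2, which limits the counts of both in the same way. The annotated Trdv5 gene lies on the opposite strand and overlaps the end of the Trdc gene by 207 bases. The strand setting of the counting is not given in the sources used here, so Trdv5 and Trdc counts may share reads there.

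Trgv2 (chr13:19336573-19336722, minus strand) was the gamma segment found in most cells, and Tcrg-V1 (chr13:19340305-19340454, plus strand) and Tcrg-V3 (chr13:19243152-19243301, plus strand) are its near copies. Over the last 280 bases Trgv2 was 95.7% identical to Tcrg-V1 and 93.9% to Tcrg-V3. Their last 150 bases are printed with capitals at the bases that differ from Trgv2, 7 in Tcrg-V1 and 10 in Tcrg-V3.
Trgv2: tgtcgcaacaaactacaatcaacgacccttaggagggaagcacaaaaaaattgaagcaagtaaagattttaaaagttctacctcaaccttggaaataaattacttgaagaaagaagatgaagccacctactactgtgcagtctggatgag
Tcrg-V1: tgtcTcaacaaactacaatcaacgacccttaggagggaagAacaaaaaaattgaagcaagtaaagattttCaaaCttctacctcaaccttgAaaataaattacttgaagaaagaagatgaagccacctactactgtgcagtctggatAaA
Tcrg-V3: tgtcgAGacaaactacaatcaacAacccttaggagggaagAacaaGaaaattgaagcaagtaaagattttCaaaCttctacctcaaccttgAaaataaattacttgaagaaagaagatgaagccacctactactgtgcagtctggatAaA
The first 120 bases of 3 gamma constant genes are printed next, with capitals where they differ from Tcrg-C1 (chr13:19214103-19214222, plus strand). Tcrg-C2 (chr13:19307432-19307551, minus strand) differed at 2 bases and Tcrg-C4 (chr13:19344558-19344677, plus strand) at 14.
Tcrg-C1: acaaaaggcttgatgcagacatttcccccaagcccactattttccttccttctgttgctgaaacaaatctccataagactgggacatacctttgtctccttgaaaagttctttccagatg
Tcrg-C2: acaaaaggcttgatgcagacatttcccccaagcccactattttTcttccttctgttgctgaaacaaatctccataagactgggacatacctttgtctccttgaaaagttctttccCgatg
Tcrg-C4: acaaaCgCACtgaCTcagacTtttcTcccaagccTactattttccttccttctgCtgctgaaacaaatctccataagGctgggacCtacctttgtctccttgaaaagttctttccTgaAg
Tcrg-C1 and Tcrg-C2 were thus hard to separate near the variable segment, where a 5′ library reads, and Tcrg-C4 was easier.

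The receptor genes that the gate did not use were examined to check the label. A UMI of a gamma variable segment was found in 35 of 41 ALLO and 24 of 29 SYN cells, and a UMI of a delta variable segment in 32 of 41 and 27 of 29. Of all 70 cells, 67 held a variable segment of either chain, and the other 3 were ALLO cells. By comparison, a gamma variable UMI was found in 1.06% of ALLO and 0.926% of SYN CD4 T cells and in 3.64% and 3.30% of CD8 T cells. Delta variable segments separated the classes less, with a UMI in 113 of 564 ALLO and 132 of 864 SYN CD4 T cells and in 86 of 549 and 64 of 545 CD8 T cells. A gamma constant UMI was found in 22 of 41 ALLO and 20 of 29 SYN cells. Alpha variable segments without a DV name, which belong to alpha beta T cells, had a UMI in 4.88% of ALLO gamma delta cells, against 63.1% of CD4 T cells and 60.7% of CD8 T cells of that library. In SYN they had a UMI in 17.2% of gamma delta cells, 68.5% of CD4 T cells and 67.5% of CD8 T cells. CD4 and CD8 T cells here are CD3-positive barcodes without Trdc that hold Cd4 or Cd8b1 but not both, 564 and 549 cells in ALLO and 864 and 545 in SYN.

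Summed over each class, Trac, the alpha constant gene, was at 111 CPM (UMIs scaled to the total of the class) in ALLO and 140 CPM in SYN gamma delta cells, against 294 and 273 CPM in CD4 and 181 and 218 CPM in CD8 T cells. It was lower in gamma delta cells by a log2 fold change of -1.19 (SE 0.204, adjusted p = 0.00108, edgeR quasi-likelihood test). Tcrg-C1 was at 106 CPM in ALLO and 225 CPM in SYN gamma delta cells and at most 1.18 CPM in CD4 or CD8 T cells of either library. Tcrg-C2, at 106 and 155 CPM, and Tcrg-C4, at 134 and 62.2 CPM, were higher as well, by log2 fold changes of 5.87 and 5.25. The beta constant genes did not separate the classes in this way. Trbc1 had a log2 difference of 0.38 (adjusted p = 0.434) and Trbc2 one of -0.25 (adjusted p = 0.522), and 52 of the 70 gamma delta cells held a UMI of either. A beta variable segment had a UMI in 29.3% of ALLO and 51.7% of SYN gamma delta cells, and in over 92.1% of CD4 and CD8 T cells. A Trac UMI was found in 15 of 41 ALLO and 10 of 29 SYN members. By gamma and alpha segments most cells matched the label, and beta chain transcripts were present in most of them. An ALLO member held no UMI of a gamma or delta variable segment or of a gamma constant gene, but 5 of alpha variable segments, 10 of beta variable segments and 3 of Trac, and so went against the label.

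The gate cuts through a continuous range of Trdc counts. Exactly 2 Trdc UMIs were found in 16 ALLO and 13 SYN members, and the highest counts were 16 in ALLO and 17 in SYN. Just outside, 26 ALLO and 28 SYN barcodes had 1 Trdc UMI and met every other condition. Of these, 73.1% in ALLO and 67.9% in SYN had a gamma variable UMI, and 11.5% and 14.3% had an alpha variable UMI. NK cells, taken as Ncr1-positive barcodes without a CD3 UMI, also carried delta transcripts. Trdc had a UMI in 23 of 135 ALLO and 34 of 210 SYN NK cells. Trdv4 had a UMI in 24.4% and 17.6% of NK cells and Trdv2-2 in 21.5% and 21.9%, so neither segment alone marks a gamma delta T cell. Trgv2 and Tcrg-V4 had no UMI in any NK cell of either library.

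Gamma delta T cells made up 0.419% of ALLO barcodes (41 of 9792, exact 95% interval 0.301 to 0.568) and 0.259% of SYN barcodes (29 of 11198, 0.174 to 0.372). The ratio was 1.62, with a counting interval of 0.981 to 2.70. Over all CD3-positive barcodes without Cd79a or Ncr1, whatever their coreceptors, the shares were 2.38% of 1726 in ALLO and 1.23% of 2364 in SYN, a ratio of 1.94 (1.17 to 3.23). The first interval includes 1 and the second does not, but without cells holding a Trac UMI the second ratio was 1.87, with an interval of 0.998 to 3.58. Both shares depend on the Trdc minimum, and with at least 1 Trdc UMI, a minimum chosen after seeing the data, the ratio over all barcodes was 1.34 (0.930 to 1.95). Depth was close in the 2 libraries, with a median of 4365 UMIs in ALLO and 4449 UMIs in SYN gamma delta cells. In all, 179679 UMIs in ALLO and 128656 UMIs in SYN lie behind the values that follow. No member was called a doublet by Scrublet, which marked 2.22% of ALLO and 4.56% of SYN barcodes. The libraries shared 264 barcode sequences, including that of 1 gamma delta cell in each library.

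Trgv2 was the segment most cells carried. It had a UMI in 27 of 41 ALLO and 18 of 29 SYN cells, Tcrg-V4 in 17 and 10, and Tcrg-V1 in 13 and 11. More than 1 gamma segment was seen in 36 of the 70 cells, so assignment of a segment needed 2 or more UMIs and no fewer than 2 times the UMIs of the runner-up. On that rule Trgv2 was assigned to 13 ALLO cells (31.7%, exact 95% interval 18.1 to 48.1) and 9 of 29 SYN cells (15.3 to 50.8). Tcrg-V4 was assigned to 6 ALLO cells (14.6%) and 2 SYN cells (6.90%), with overlapping intervals of 5.57 to 29.2 and 0.846 to 22.8. Tcrg-V1 was assigned to 2 ALLO and 1 SYN cells, Tcrg-V3 and Tcrg-V6 to 1 cell in each library, and Tcrg-V7 to 1 SYN cell. Tcrg-V5, the segment of skin epidermal cells, had 1 UMI in all. No gamma segment could be assigned in 21 cells and none was detected in 11. The intervals are wide in both libraries, and reads of Trgv2 and of its near copies could be counted for one another.

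The constant genes that went with each segment were counted in the assigned cells. The 3 cells of Tcrg-V1 held 4 UMIs of Tcrg-C4, 2 of Tcrg-C2 and 0 of Tcrg-C1. The 2 cells of Tcrg-V6 held 10 UMIs of Tcrg-C1, 2 of Tcrg-C2 and 1 of Tcrg-C4. In the genome Tcrg-V1 lies next to Tcrg-C4, and Tcrg-V6 lies in the cluster of Tcrg-C1 as do Tcrg-V4 and Tcrg-V7. The 8 cells of Tcrg-V4 held 5 UMIs of Tcrg-C2, 3 of Tcrg-C1 and 2 of Tcrg-C4, and the 1 cell of Tcrg-V7 held 2 of Tcrg-C4 alone. The leading constant gene was thus the neighbour for Tcrg-V1 and Tcrg-V6 but not for Tcrg-V4 or Tcrg-V7. These counts are small, and Tcrg-C1 and Tcrg-C2 were 97.3% identical over their first 300 bases, so reads of the 2 may be mixed. The 22 Trgv2 cells held 22 UMIs of Tcrg-C1, 17 of Tcrg-C2 and 15 of Tcrg-C4, with no single partner. All 15 of Tcrg-C4 lay in 6 of the 13 ALLO cells. The 9 SYN cells held 11 UMIs of Tcrg-C1, 5 of Tcrg-C2 and 0 of Tcrg-C4. Among these constant genes only Tcrg-C2 lies on the minus strand, as Trgv2 does.

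**Figure D1:**
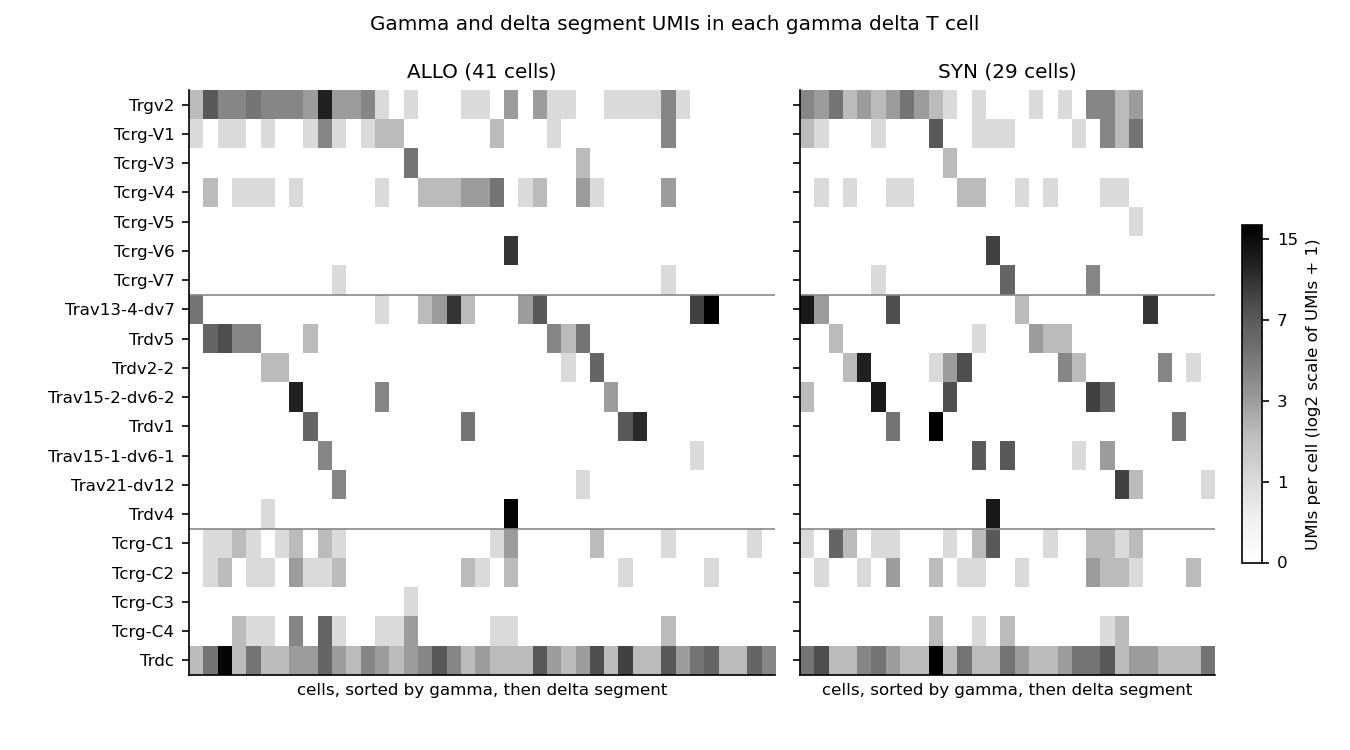
UMIs of each gamma variable segment (top block), delta variable segment (middle block) and constant gene (bottom block) in each of the 41 ALLO (left) and 29 SYN (right) gamma delta T cells, 1 column a cell, darker for more UMIs on a log2 scale. Trgv2 fills the top row in 45 cells, often beside Tcrg-V1 or Tcrg-V4, whereas delta segments mostly stand alone, and Tcrg-V6 and Trdv4 coincide in 1 column of each library.

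Delta use was spread over more segments. Trav13-4-dv7 was assigned to 8 ALLO cells (19.5%, exact 95% interval 8.82 to 34.9) and 4 SYN cells (13.8%, 3.89 to 31.7). Trdv5 was assigned to 7 and 3 cells, Trdv2-2 to 3 and 6, Trav15-2-dv6-2 to 3 and 4, and Trdv1 to 4 and 2. Trav15-1-dv6-1 and Trav21-dv12 were each assigned to 1 ALLO and 2 SYN cells, and Trdv4 to 1 cell in each library. Only 15 of the 70 cells held more than 1 delta segment, against 36 for gamma. Both chains were assigned in 29 cells. Trgv2 was found with 7 delta segments, most often with Trdv5 (5 cells) and Trdv2-2 (4 cells), while the 2 cells of Tcrg-V6 both held Trdv4. The 12 cells of Trav13-4-dv7 were assigned Tcrg-V4 in 3 cells and Trgv2 in 3, and the gamma chain of the other 6 was not assigned or not detected.

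Cells were then sorted by effector genes. A cell was counted as of the interferon gamma type when it held a UMI of Tbx21, Eomes, Ifng, Gzmb, Ccl5 or Nkg7. The interferon gamma type made up 38 of 41 ALLO cells (92.7%, exact 95% interval 80.1 to 98.5) and 28 of 29 SYN cells (96.6%, 82.2 to 99.9). Thinned to 1000 UMIs a cell, it was 85.4% in ALLO and 75.9% in SYN. The sort rests mainly on Ccl5, a chemokine of memory and cytotoxic lymphocytes, which had a UMI in 33 ALLO and 23 SYN cells, and on Nkg7, a granule protein, in 37 and 27 cells. In B cells, which should lack both, Ccl5 had a UMI in 2.67% of ALLO and 4.78% of SYN cells and Nkg7 in 1.14% and 1.94%, at median depths of 3194 and 3028.5 UMIs. CD8 T cells met the same rule in 87.8% of ALLO and 85.0% of SYN cells, with Ccl5 in 50.6% and 37.6% and Nkg7 in 85.1% and 83.1%. Ifng itself had 12 UMIs in ALLO and 2 in SYN gamma delta cells.

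In each library 1 cell was assigned Tcrg-V6, and each of these 2 cells held Trdv4 and fell outside the interferon gamma type. The ALLO cell had 3824 UMIs, with 10 of Tcrg-V6 and 16 of Trdv4. The SYN cell had 4420 UMIs, with 9 of Tcrg-V6 and 13 of Trdv4. No other gamma delta cell held a Tcrg-V6 UMI. Cd163l1, a scavenger receptor gene (SCART1) known from this subset, had 16 and 5 UMIs in them and 1 UMI in the rest. Of 29 genes known from interleukin 17-producing gamma delta cells (type 17 genes), 19 were detected in the ALLO cell and 20 in the SYN cell, with 17 in common. The other 40 ALLO cells held between 0 and 6 of these genes, with a median of 2, and the other 28 SYN cells between 0 and 9, also with a median of 2. Sox13 and Maf, transcription factors of this lineage, and Zbtb16, which encodes PLZF, had 1 or 2 UMIs in each of the 2 cells. Ccl5, Nkg7, Ly6c2, Tbx21, Cd27 and Trac were at 0 in both. Neither cell nor any other gamma delta cell held a UMI of Il17a, Il17f, Il22 or Il23r. Summed over all gamma delta cells, 3 UMIs would be 16.7 CPM in ALLO and 23.3 CPM in SYN. In the 2 cells alone, with 3824 and 4420 UMIs, that floor is far higher, so an absence there says little. Both cells had 2 Trdc UMIs, the lowest count in the gate, so a minimum of 3 removes them. The 2 barcodes stand for 1 cell each, and no difference between ALLO and SYN in the number of such cells was detectable.

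The SYN cell with 9 type 17 genes, singled out after its values were seen, was assigned Trgv2 and Trav15-2-dv6-2 and held 3 UMIs of Zbtb16 and 1 of Icos, with 8 UMIs of Nkg7, 2 of Ly6c2 and 0 of Ccl5. It also held 4 UMIs of alpha variable segments without a DV name and 4 of Trbc2, and is 1 of the 7 members with such an alpha segment. In the mouse, cells that join a DV6 segment to PLZF expression are known as NKT-like gamma delta cells, and whether this barcode is one was not tested. Zbtb16 was found in 1 other cell outside the Tcrg-V6 pair, an ALLO cell. The 10 cells assigned either Trav15 segment with a DV6 name held Zbtb16 in 1 cell only, the SYN cell.

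Over all gamma delta cells, Ccl5 and Ly6c2 were then set side by side. Ly6c2 encodes a surface Ly6C protein carried by memory-like T cells. Ccl5 ran between 0 and 108 UMIs a cell in ALLO, with a median of 30, and between 0 and 84 in SYN, with a median of 18. Ly6c2 ran between 0 and 40 in ALLO, with a median of 6, and between 0 and 24 in SYN, with a median of 5. All 22 ALLO cells with a Ly6c2 UMI held at least 10 Ccl5 UMIs, and 15 of the 19 such SYN cells did. At 10 or more Ccl5 UMIs lay 28 ALLO and 16 SYN cells, a split chosen after seeing the values and given without a test. Those cells were also deeper, with median UMIs of 4898.5 against 3363 in ALLO and 4972.5 against 4227 in SYN. Klrk1 (the receptor NKG2D) was at 255 CPM in the cells above the split and 21.6 CPM below it in ALLO, and at 386 and 0 CPM in SYN. Ctla2a, a cathepsin inhibitor gene, was at 450 and 21.6 CPM in ALLO and 319 and 0 CPM in SYN. Trdv1 was found only above the split, with 29 UMIs in ALLO and 27 in SYN. Lat, a receptor signal adaptor, was lower above the split, at 277 against 865 CPM in ALLO and 226 against 618 CPM in SYN. Nr4a2 ran the same way, at 74.9 against 238 CPM in ALLO and 0 against 281 CPM in SYN. Klrk1, Ctla2a, Trdv1, Lat and Nr4a2 were picked from the genes that differed most across the split in both libraries. Their agreement between the libraries is therefore no separate result.

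**Figure D2:**
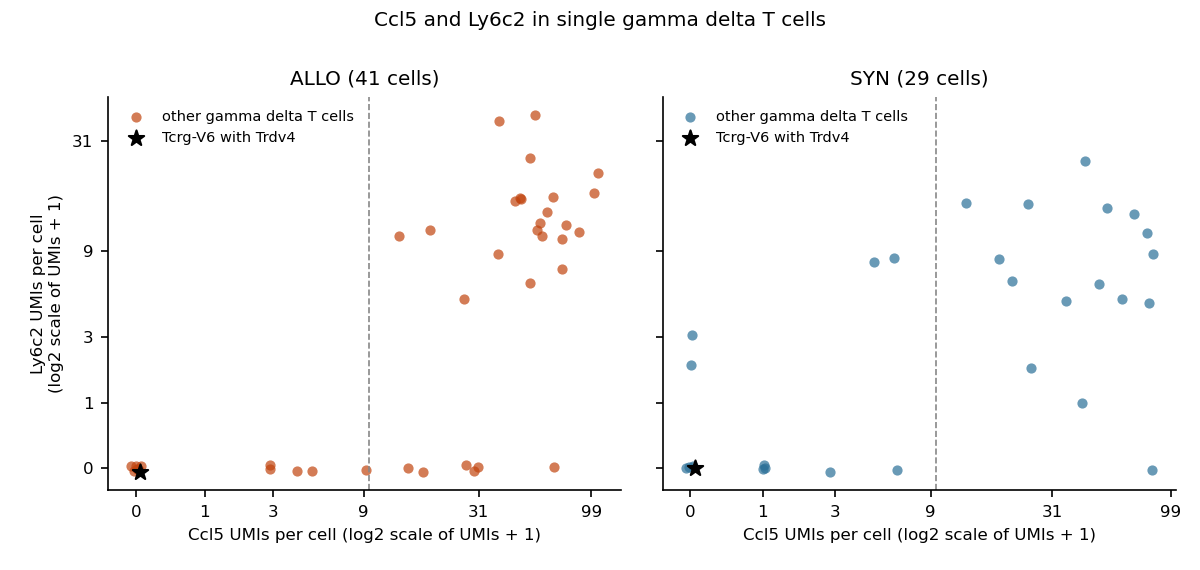
Ccl5 (horizontal) and Ly6c2 (vertical) UMIs in each gamma delta T cell on log2 scales of UMIs + 1 with slight jitter, ALLO left and SYN right, with a dashed line below 10 Ccl5 UMIs and stars for the Tcrg-V6 and Trdv4 cells. Cells with Ly6c2 lie right of the line, except 4 SYN cells, and both stars lie at the origin.

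By delta segment, 11 of 12 Trav13-4-dv7 cells held Ccl5 and 11 of 12 held Ly6c2, and all 6 Trdv1 cells held at least 30 Ccl5 UMIs. Of the 3 Trav15-1-dv6-1 cells, 2 held Ccl5, with at most 3 UMIs, and none held Ly6c2. Of the 10 Trdv5 cells, 8 held Ccl5 and 5 held Ly6c2. By gamma segment, Ccl5 had a UMI in 19 of 22 Trgv2 cells and 7 of 8 Tcrg-V4 cells. Cd160, an inhibitory and costimulatory receptor, was in all 8 Tcrg-V4 cells and in 10 of the 22 Trgv2 cells. Segments and these genes were counted in the same cells, so the depth of a cell bears on both, and the groups are too small to compare.

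Gamma delta T cells were next set against CD4 and CD8 T cells over all genes, with UMIs summed per class and library and the library as a block. Klrc1, which encodes the receptor NKG2A, had the largest rise among the named genes, with a log2 fold change of 4.66 (SE 0.304, adjusted p = 1.03e-09). Over 10009 genes tested with edgeR, 119 were higher in gamma delta cells (1.19%) and 149 lower (1.49%) at an adjusted p under 0.05, and the median log2 difference of all genes was -0.10. The 6 sums leave 2 residual degrees of freedom. With the library as a block, the p-values rest on how far class differences varied between the 2 libraries, with variance estimates shared across genes. They do not measure the spread between animals. Of the genes called, 118 of 119 and 147 of 149 went the same way in each library, but these libraries also made the calls. Against CD4 and against CD8 T cells, each alone, 58 of the 119 and 51 of the 149 were called both times. Under 30 gamma delta UMIs in a library lay behind 91 of the 119 and 62 of the 149. The genes of the gate were left out.

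The named genes needed at least 30 UMIs in the higher class of each library, and called genes below that, such as Kit with a log2 fold change of 5.78, could have larger ones. Klrc1 was at 245 CPM in ALLO and 319 CPM in SYN gamma delta cells, against 52.0 and 28.8 CPM in CD8 and 1.97 and 1.95 CPM in CD4 T cells. Cd7, a costimulatory receptor of T and NK cells, was at 1035 and 1656 CPM, against 164 and 189 CPM in CD8 and 37.9 and 50.1 CPM in CD4 T cells. Its log2 fold change was 3.65 (SE 0.117, adjusted p = 4.84e-15). Cd160 was at 328 and 389 CPM in gamma delta cells, against 48.8 and 44.2 CPM in CD8 and 16.6 and 8.63 CPM in CD4 T cells (log2 fold change 3.64). Xcl1, a chemokine that draws cross-presenting dendritic cells, was at 217 and 754 CPM, against 67.3 and 53.7 CPM in CD8 and 16.6 and 25.3 CPM in CD4 T cells (log2 fold change 3.39). In SYN, 86 of its 97 UMIs lay in 1 cell, and without that cell's UMIs its level was 85.5 CPM. The 11 UMIs left are below the minimum of 30 for a named gene. Lying above CD4 and CD8 T cells in each library was a condition for every named gene that was higher, so it is no separate result.

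Ccl5 was at 8237 CPM in ALLO and 6234 CPM in SYN gamma delta cells, against 3666 and 2163 CPM in CD8 and 441 and 189 CPM in CD4 T cells, a log2 fold change of 2.72 (SE 0.116, adjusted p = 4.67e-13). Il2rb, the receptor chain for interleukins 2 and 15, was at 651 and 645 CPM, against 246 and 258 CPM in CD8 and 131 and 99.3 CPM in CD4 T cells (log2 fold change 1.68). Ifngr1, a chain of the interferon gamma receptor, was higher by 1.34 on the log2 scale, and the remaining Efhd2, Pde7a, AW112010 and Ahnak by 1.11 to 1.45. Ly6c2, Nkg7, Klrd1 and Ctsw differed mainly from CD4 T cells. Ly6c2 was at 1892 and 1267 CPM in gamma delta cells, 1496 and 1064 CPM in CD8 and 26.0 and 34.5 CPM in CD4 T cells. Against CD8 T cells alone its log2 difference was -0.02 (adjusted p = 0.981), and that of Nkg7 was -0.01 (adjusted p = 0.991, both edgeR). Of the 15 named genes that were higher, all 15 were called against CD4 alone and 10 against CD8 alone. Against CD8 T cells with at least 10 Ccl5 UMIs (198 in ALLO and 124 in SYN), a comparison chosen after seeing the data and made without Ccl5, 5 of 14 were called higher. They were Cd7 (1.92), Xcl1 (1.89), Cd160 (1.66), Klrc1 (1.09) and AW112010 (0.51), and Ly6c2 was then lower (-0.76, adjusted p = 0.000125).

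Genes that were lower in gamma delta cells included several of resting alpha beta T cells. Igfbp4, a growth factor binding protein of naive T cells, was at 50.1 CPM in ALLO and 46.6 CPM in SYN gamma delta cells, against 735 and 857 CPM in CD4 and 162 and 188 CPM in CD8 T cells. Its log2 fold change was -3.17 (SE 0.244, adjusted p = 1.23e-08). Against CD8 T cells with at least 10 Ccl5 UMIs its direction turned, to 1.05 (adjusted p = 0.566), as did that of Izumo1r, to 0.46 (adjusted p = 0.911, both edgeR). Il6ra, the interleukin 6 receptor, had 4 UMIs in ALLO and 0 in SYN gamma delta cells, against 155 and 157 CPM in CD4 and 76.6 and 88.3 CPM in CD8 T cells. Inpp4b, a lipid phosphatase, was at 39.0 and 31.1 CPM, against 321 and 341 CPM in CD4 and 154 and 162 CPM in CD8 T cells. Als2cl, Slc35b3, Lrig1 and Rbl1 had no UMI in any gamma delta cell. Against a floor of 3 counts over both libraries, 9.73 CPM, Als2cl was at least 6.05-fold lower than in CD4 and at least 4.35-fold lower than in CD8 T cells. For Rbl1 those bounds were 2.70 and 2.04. The other named genes that were lower were Usp5, 2310009B15Rik, Izumo1r, Chchd10, Slfn1, Sit1, Mrps6 and Ifi27l2a. Usp5, 2310009B15Rik, Chchd10 and Mrps6 had at most 2 UMIs in the gamma delta cells of either library and lost their call in several alternative fits. Rbl1 lost its call with no library block (adjusted p = 0.115, edgeR), with DESeq2 and with at least 3 Trdc UMIs. Thinned to 1000 UMIs a cell, 10 of the 15 named genes that were higher and 7 of the 15 that were lower were still called. Klrd1, Pde7a, Efhd2, Ctsw and Ahnak were lost among the first, and Als2cl, Slc35b3, Lrig1 and Rbl1 were lost among the second with the 4 of at most 2 UMIs.

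**Figure D3:**
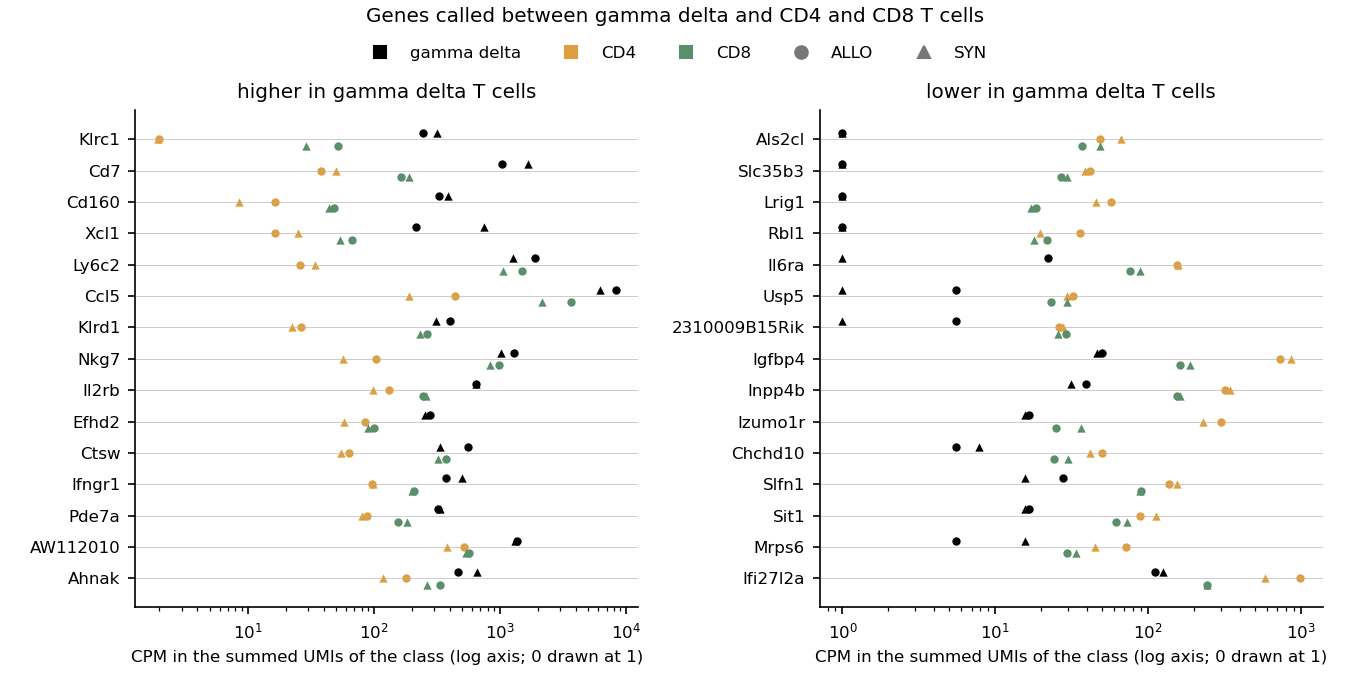
CPM of the 15 named genes that were higher (left) and the 15 that were lower (right) in gamma delta T cells, on a log axis with 0 drawn at 1, for gamma delta (black), CD4 (orange) and CD8 (green) T cells, circles for ALLO and triangles for SYN. Klrc1, Cd7, Cd160 and Xcl1 stand clear of CD4 and CD8 T cells, while Ly6c2, Nkg7, Klrd1 and Ctsw lie near CD8 T cells. NK cells are not drawn. The SYN level of Xcl1 rests mainly on 1 cell.

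The gene lists below were chosen with results of these data known and are described by counts, beside the 1.19% higher and 1.49% lower of all genes. Higher and lower in them refer to the average of CD4 and CD8 T cells, so a call can rest on CD4 T cells mainly. The low-count filter could be passed by the gamma delta sums of the libraries alone. A list member low in CD4 and CD8 T cells could thus be tested only where gamma delta cells held it. Counts over the members tested are therefore descriptions and no support for a list. Of 20 genes of the interferon gamma type, 12 were higher and none lower, with a median log2 difference of 1.76 against -0.10 for all genes. Tbx21 (T-bet), the regulator of this programme, was at 100 and 163 CPM in gamma delta cells, against 54.2 and 37.2 CPM in CD8 and 17.4 and 13.1 CPM in CD4 T cells. Eomes, its relative, was at 100 and 62.2 CPM in gamma delta cells, 68.1 and 73.0 CPM in CD8 and 6.31 and 3.62 CPM in CD4 T cells. Ifng did not pass the test, with a log2 difference of 0.21 (adjusted p = 0.916), and Cd27 was at -0.23 (adjusted p = 0.672). Of 12 killer lectin-like receptors tested, 6 were higher, namely Klrb1c, Klrc1, Klrc2, Klrd1, Klre1 and Klrk1, and none was lower. Of 11 cytotoxic granule genes tested, Nkg7 and Ctsw were higher and 9 did not pass. Against CD8 T cells alone Nkg7, Ctsw and Klrd1 were not called, with log2 differences of -0.01, 0.06 and 0.19. Gzmb, the main killer granzyme, had no UMI in 70 gamma delta cells, where CD8 T cells had 21.1 CPM over both libraries, a bound of at least 2.17-fold lower at the floor, and it did not pass the test (adjusted p = 0.528). Prf1, which encodes perforin, was at 50.1 and 62.2 CPM in gamma delta cells, against 49.9 and 46.4 CPM in CD8 T cells, and did not pass (adjusted p = 0.472).

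Of 21 type 17 genes tested, 5 were higher and none lower. They were Cd163l1, Zbtb16, Tmem176b, Cxcr6 and Il18r1. The 2 Tcrg-V6 cells held 21 of the 22 Cd163l1 UMIs and 10 of the 11 Tmem176b UMIs. Cxcr6, a tissue-homing chemokine receptor, had 30 UMIs in ALLO and 18 in SYN, with 2 and 3 of them in those cells. Zbtb16 had 1 UMI in the Tcrg-V6 cell of ALLO and 2 in that of SYN. Elsewhere it had 1 UMI in 1 ALLO cell and 3 in 1 SYN cell.

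Among 14 genes of naive and circulating T cells, Ccr7, Lef1, Igfbp4 and Dapl1 were lower and Ly6c2 higher. Ly6c2 was not called against CD8 T cells alone. Ccr7, the lymph node homing receptor, was at 89.0 and 62.2 CPM in gamma delta cells, against 309 and 378 CPM in CD4 and 242 and 268 CPM in CD8 T cells (log2 fold change -2.16, SE 0.234). Of 16 genes of receptor signalling, Lat, Cd28, Cd5 and Cd6 were lower and none higher. Cd5 and Cd6, which damp receptor signals, fell by 1.53 and 1.64 on the log2 scale. Of 19 genes of gamma delta lineage and signal strength tested, Sox4, Nr4a1 and Fcer1g were higher and Cd5 and Cd6 lower. Nr4a1 had 18 of its 30 SYN UMIs in 1 cell, and Sox4 had 9 of 15 ALLO and 6 of 8 SYN UMIs in 1 cell each.

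Of 18 chemokine receptor and homing genes tested, Cxcr6, Itga4 and Selplg were higher and Ccr7 lower. Of 9 inhibitory receptors tested, Cd160 and Cd244a were higher. Lag3 had no UMI in gamma delta cells. Of 11 NKT-like genes tested, Zbtb16 was higher and Il6ra lower. The Zbtb16 call rests on the few cells given above. Of 15 interferon-induced genes tested, Ifi27l2a was lower, and of 14 immediate early and heat shock genes none was called at an adjusted p under 0.05 (edgeR). For markers of other cells, 4 of 6 NK markers were tested and all 4 were higher, Klrb1c, Eomes, Tyrobp and Klre1. In SYN, Eomes was below its level in CD8 T cells. The NK marker list was at 356 CPM in ALLO and 264 CPM in SYN gamma delta cells in sum. Tyrobp, whose product signals below NK receptors, was at 111 and 23.3 CPM, against 4140 and 4205 CPM in NK cells. Gzma, a granzyme of NK cells, was at 5.57 and 179 CPM, against 10148 and 10231 CPM in NK cells. Of 4 innate lymphoid markers 2 were tested and Kit was higher, with 15 UMIs in 4 ALLO cells and 1 UMI in SYN. Of 3 regulatory T markers, Ikzf2 (Helios) was higher, at 228 and 218 CPM against 114 and 54.0 CPM in CD4 and 26.4 and 35.4 CPM in CD8 T cells, and Foxp3 had no UMI. None of 6 B cell, 4 red cell or 3 dividing cell markers was called, and of 3 myeloid markers S100a8 and S100a9 were lower, at 0 in gamma delta cells. In SYN, 1 CD4 barcode held 376 of the 766 UMIs of the myeloid list and 1 CD8 barcode held 201 of 622. In ALLO no CD4 or CD8 barcode held more than 8 of 234 and 263. The part of other cell types in these differences was not tested.

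ALLO and SYN gamma delta cells were compared as 1 library against 1, so the values are ratios with counting intervals and no test. Among 2384 genes with at least 20 UMIs over both libraries, 70 were at least 2-fold higher in ALLO (2.94%) and 94 at least 2-fold lower (3.94%). At 50 or more UMIs, 3 of 784 were that much higher and 8 lower. The summed levels of gene lists for the main programmes were close. Genes of the interferon gamma type summed to 12506 CPM in ALLO and 10711 CPM in SYN, with 1 of the 14 that had enough UMIs at least 2-fold lower, Xcl1. Type 17 genes summed to 1514 and 1601 CPM, killer lectin-like receptors to 1230 and 1213 CPM, and receptor signalling genes to 4341 and 4718 CPM, with none of the 7, 4 and 14 members that had at least 20 UMIs 2-fold apart. Members below that minimum were not read for a difference. Ccl5 alone gave 8237 CPM of the interferon gamma type sum in ALLO and 6234 CPM in SYN. Il7r outside the Tcrg-V6 cells gave 93 of the 272 type 17 UMIs in ALLO and 64 of 206 in SYN. Such sums mainly follow their strongest members.

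Ly6a (Sca-1), an activation and memory antigen, led the genes that were higher in ALLO, with 30 UMIs (167 CPM) in 8 ALLO cells against 2 UMIs (15.5 CPM) in SYN. Its ratio was 10.7, with a counting interval of 2.73 to 92.8, and 13 of the ALLO UMIs lay in 1 cell. Tnfaip3 (A20), a brake on NF-kappaB, had 31 UMIs in 19 ALLO cells and 7 UMIs in 4 SYN cells, a ratio of 3.17 (1.37 to 8.53). Hnrnpdl, an RNA-binding protein gene, was found in 26 ALLO and 10 SYN cells at a ratio of 2.93 (1.49 to 6.28). Tyrobp had 20 UMIs in 7 ALLO cells, 9 of them in 1 cell, and 3 in 3 SYN cells, and without the top cell of each library its interval was 0.859 to 36.6. Hmgb2 had 19 of its 58 ALLO UMIs in 1 cell, and its ratio was 1.86 without the top cells, against 2.31 with them. Fundc2, Cdc5l, Rnf220 and Lars2 had ratios between 1.52 and 6.44. Stmn1, a gene of dividing cells, had 19 UMIs in ALLO and 1 in SYN, but 18 of the 19 lay in 1 cell. The dividing cell markers had 16 UMIs in 2 ALLO cells, 15 of them in 1 cell, and none in SYN.

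Gzma led the genes that were lower in ALLO, with 1 UMI against 23 UMIs in SYN, a ratio of 0.031 (0.00076 to 0.192). The 23 UMIs came from 2 SYN cells, with 15 in 1 of them. Xcl1 had 39 UMIs in 17 ALLO cells and 97 UMIs in 8 SYN cells, a ratio of 0.288 (0.193 to 0.422). Leaving out the top cell of each library reversed it to 1.89. Irf2bpl, Cnot6, Syap1 and Ssr3 had at most 3 UMIs in any SYN cell. Nfatc1, a transcription factor of receptor signalling, had 7 UMIs in 7 ALLO cells and 25 UMIs in 17 SYN cells, a ratio of 0.200 (0.073 to 0.477). Rasgrp2, a Rap1 activator, had 13 UMIs in 11 ALLO cells and 30 UMIs in 18 SYN cells, a ratio of 0.310 (0.149 to 0.613). Vim, the intermediate filament of activated lymphocytes, had 35 UMIs in 17 ALLO cells and 62 UMIs in 17 SYN cells, a ratio of 0.404 (0.259 to 0.621). Ptms was at 0.199. The named genes are those whose intervals lie farthest from 1 among 2384, and 1 library in each group gives no measure of the spread between animals.

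**Figure D4:**
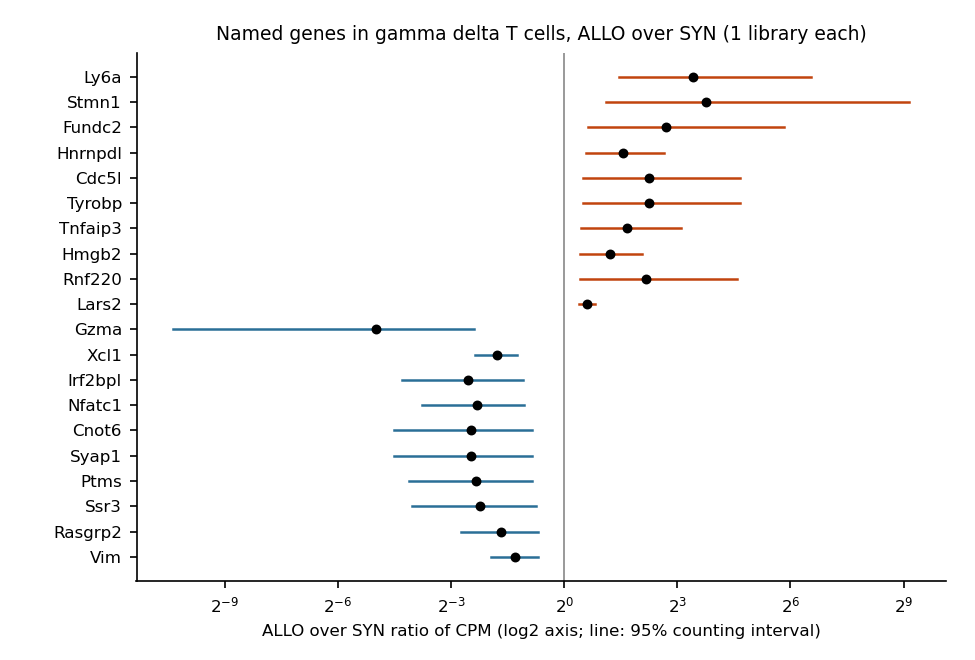
ALLO over SYN ratio of CPM in gamma delta T cells for the 20 named genes, on a log2 axis, points for the ratio and lines for the 95% counting interval, with 1 library in each group. Ly6a and Stmn1 have the highest ratios and Gzma the lowest, each with a wide interval.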

How the data were processed

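Mouse spleen cells were profiled with the 10x Genomics 5′ v2 chemistry, 1 library for ALLO and 1 for SYN. The deposited files hold raw UMI counts per gene and barcode, and Cell Ranger 6.0.2 with mm10 is named per the submitters' processing notes. Symbols were taken from the feature files. Barcodes with at least 1000 UMIs and at most 10% mitochondrial UMIs were kept, 9792 of 11185 in ALLO and 11198 of 17777 in SYN, and the gate in the text was applied to raw UMIs. Members and gene lists were chosen with earlier results of these data known. Scrublet (scanpy 1.11.5) marked doublets, which stayed in except in 1 alternative. Thinning drew 1000 UMIs a cell.

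UMIs were summed per class and library, and 6 sums were tested with edgeR 4.0.16 (quasi-likelihood, TMM, library block, low counts filtered, Benjamini-Hochberg adjustment over all genes, threshold 0.05). DESeq2 1.42.0 was an alternative. The fit was tested on simulated counts. Shares have exact Clopper-Pearson intervals and ratios exact conditional intervals at 95%, for counting error only. Where a class had 0 UMIs, the floor was 3 counts.

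Named genes between classes were the 15 highest and 15 lowest log2 fold changes among those called, with at least 30 UMIs in the higher class of each library and 1 direction against CD4 and CD8 T cells in each library. Between ALLO and SYN they were the 10 highest and 10 lowest by the interval bound nearest 1, with at least 20 UMIs. Gate genes, receptor and immunoglobulin segments, mitochondrial, ribosomal and predicted genes were left out. List members are named beside them. Some list members, and a sort of cells that used one, are not reported here. Segment sequences came from GENCODE M21, whose gene IDs match the files.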

Additional observations from a re-analysis of the deposited data

How the results depend on the processing

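No paired analysis was possible because each group is 1 library. Leaving out a library leaves no residual degrees of freedom, so no such test was run. The share of gamma delta T cells moved with the gate. With at least 3 Trdc UMIs it was 0.255% in ALLO and 0.143% in SYN of all kept barcodes, and 1.45% and 0.677% of CD3-positive barcodes. Without cells holding a Trac UMI it was 0.266% and 0.170%, and 1.51% and 0.804%. With at least 1 Trdc UMI, added after seeing the data, it was 0.684% and 0.509%, and 3.88% and 2.41%. The ALLO over SYN ratio stayed above 1 in each of these. Taking the top segment at 1 UMI gave Trgv2 in 48.8% of ALLO cells. Requiring 3 UMIs gave Tcrg-V4 in 0% of SYN cells, and at least 3 Trdc UMIs gave Trdv5 in 0% of SYN cells. Interferon gamma type cells in SYN were 75.9% when thinned and 100% with at least 3 Trdc UMIs.

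Genes higher in gamma delta cells numbered 196 against CD4 T cells alone, 79 against CD8 T cells alone, 76 against CD8 T cells with at least 10 Ccl5 UMIs, and 34 when thinned to 1000 UMIs. Genes lower numbered 236 with no filter on low counts. All other fits gave counts within 1.5 times. Against CD8 T cells alone Nkg7 (-0.00985) and Ly6c2 (-0.0202) reversed. Against those with at least 10 Ccl5 UMIs, Klrd1 (-0.20), Nkg7 (-0.56), Ly6c2 (-0.76), Ctsw (-0.41), Ahnak (-0.29), Izumo1r (0.46) and Igfbp4 (1.05) reversed. The comparison class differs by construction in these fits. Genes at least 2-fold apart between ALLO and SYN fell to 3 higher and 8 lower at 50 UMIs, and the cause was not tested. Tnfaip3 reversed to 0.707 when thinned, and Xcl1 to 1.89 without its top cells, and the cause was not tested for Tnfaip3. Depth limits all counts: 1 UMI is 5.57 CPM in ALLO and 7.77 CPM in SYN gamma delta cells.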
